A study of Rattus norvegicus with 4 samples.

Results

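The genes described here encode 8 cytoplasmic intermediate filament proteins of the nervous system: Gfap and Vim of type III, and Nes, Nefl, Nefm, Nefh, Ina and Synm of type IV. They were taken by name from a deposited table of 14410 genes, and all 8 were present and among the 14368 genes tested. Transcripts were measured by RNA-seq in CG4, a line of rat oligodendrocyte progenitors that form myelin-producing oligodendrocytes when growth factors are withdrawn. The ctrl group carried a CAG-IRES-GFP retrovirus and the Phf8oe group a CAG-Phf8-IRES-GFP retrovirus, CAG being a promoter active in most cells and Phf8 a histone demethylase. Each group held 2 libraries labelled as biological replicates. All cells were wild type at the start, were selected for GFP by flow sorting after transduction, and spent 3 days in SATO-containing medium, which lets them differentiate. The sources used here do not say whether replicates were transduced separately, so the p-values measure the spread between these libraries, which may be partly technical. The comparison asks which transcripts differ when differentiating oligodendroglial cells carry extra Phf8.

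Intermediate filaments are rope-like polymers that give cells mechanical strength, and each cell type builds them from its own set of proteins. Astrocytes build them from Gfap and vimentin. Neural progenitors use vimentin with nestin, and axons use the neurofilament light, medium and heavy chains with alpha-internexin. Oligodendrocyte progenitors contain vimentin, and oligodendrocytes lose it as they mature and rely mainly on microtubules and actin, so these genes are widely read as markers of neighbouring fates.

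Deposited values were normalized counts, scaled by the authors to a common level. They summed to between 39945215 and 41149255 per library, and gaps in the run of whole numbers gave an estimate of 28400000 to 47800000 reads per library. Phf8 stood at 2026 and 2205 in ctrl and at 5650 and 10796 in Phf8oe. It was higher in both Phf8oe libraries, 3.69-fold on average, but did not pass the test (limma adjusted p = 0.0631). The lineage markers Sox10, Olig1, Olig2 and Mbp were present at 14079 or more in every library, as the label of the line says. A p adjusted by the Benjamini-Hochberg method was under 0.05 for 1098 of the 14368 genes in limma, which is 7.64%. The part that were lower in Phf8oe came to 4.65% and the part that were higher to 2.99%. The total was 20 without ctrl replicate 1, 190 without ctrl replicate 2, 1848 without Phf8oe replicate 1 and 2145 without Phf8oe replicate 2.

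Of the 8 filament genes, 3 fell in Phf8oe (Gfap, Vim and Nefm), none rose and 5 did not pass the test. At an unadjusted p under 0.05, 5 were lower and 0 higher, against 13.6% of all tested genes lower and 12.7% higher. limma-voom also called 3 of the 8 lower and 0 higher. The count of 3 stands against 4.65% of all tested genes lower, and it was 0 without ctrl replicate 1 (4 at an unadjusted p under 0.05) and 1 without ctrl replicate 2. Over the 8 genes the median log2 fold change was -0.85, against 0.00313 over all tested genes. In Gfap, Vim, Nes, Nefl and Nefm every Phf8oe library lay below every ctrl library. Groups separated in that direction in 28.7% of all tested genes, so separation alone is common in these 4 libraries. Nefh, Ina and Synm had overlapping groups. Both type III genes and 1 of the 6 type IV genes were therefore among those that passed.

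**Figure D1:**
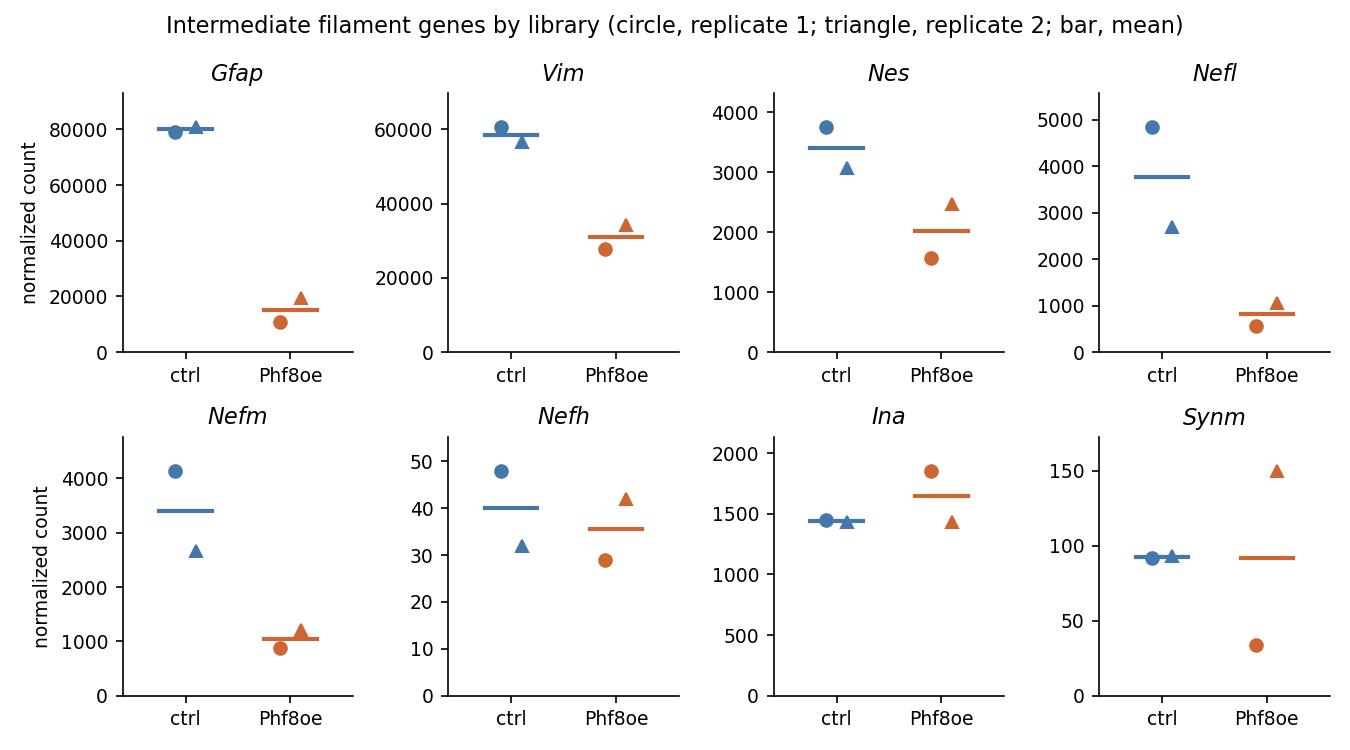
Normalized counts of the 8 intermediate filament genes (vertical axes from 0, 1 scale per gene) in ctrl and Phf8oe, with replicate 1 as a circle, replicate 2 as a triangle and the group mean as a bar. Gfap, Vim, Nes, Nefl and Nefm are lower in both Phf8oe libraries, while the groups overlap in Nefh, Ina and Synm.

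The stretches before the annotated starts of Gfap, Vim and Ina are shown because these genes behaved differently, Gfap and Vim falling and Ina not, and because they differ in their content of CpG dinucleotides. CpG-rich promoters are the usual place of the histone mark that the reader domain of Phf8 binds. Each sequence gives the 250 bases before the start on the gene's strand, 5′ to 3′, from RefSeq on the GRCr8 assembly, with CpG dinucleotides in capitals. The Gfap window is chr10:88361662-88361911 (minus strand), the Vim window chr17:81577011-81577260 (plus strand) and the Ina window chr1:255837879-255838128 (plus strand).
Gfap: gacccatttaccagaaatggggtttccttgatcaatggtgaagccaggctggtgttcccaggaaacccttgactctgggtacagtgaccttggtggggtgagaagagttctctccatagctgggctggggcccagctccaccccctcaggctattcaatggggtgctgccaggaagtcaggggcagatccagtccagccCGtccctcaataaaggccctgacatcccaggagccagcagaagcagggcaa
Vim: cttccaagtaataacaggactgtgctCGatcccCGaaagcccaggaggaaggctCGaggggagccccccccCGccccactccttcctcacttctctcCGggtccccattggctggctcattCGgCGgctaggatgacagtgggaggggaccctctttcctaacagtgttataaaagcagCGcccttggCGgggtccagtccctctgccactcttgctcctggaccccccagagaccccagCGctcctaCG
Ina: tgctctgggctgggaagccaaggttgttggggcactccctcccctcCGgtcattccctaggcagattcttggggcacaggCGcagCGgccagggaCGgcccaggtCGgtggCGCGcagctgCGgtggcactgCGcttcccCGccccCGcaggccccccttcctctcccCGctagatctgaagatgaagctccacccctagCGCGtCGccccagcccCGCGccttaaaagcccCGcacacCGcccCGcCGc

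Gfap had 1 CpG in this window, Vim 11 and Ina 21. The ratio of observed to expected CpG was 0.0483 for Gfap, 0.467 for Vim and 0.692 for Ina, against a median of 0.383 over 33469 rat promoters of the same length. Of those promoters, 7.88% lay below Gfap, 57.2% below Vim and 73.4% below Ina. Nes had 14 CpG (ratio 0.615) and Synm 5 (ratio 0.331), and promoters were matched for 5 of the 8 genes. Nefl, Nefm and Nefh had no matched promoter. Among the genes that fell, the window was thus poor in CpG in Gfap and above the median in Vim, while Nefm had none. A search of both strands for TGANTCA, the site of AP-1 factors, found it in none of the 5 windows and in 6.34% of all promoters. The same held for the STAT site TTCNNNGAA, present in 7.67% of all promoters, for the RBPJ site TTCCCAC of Notch signalling, present in 5.27%, and for the NFI site by its name alone, present in 0.0359%. The TATA box TATAAA was found in Vim, 82 bases before the annotated start, and in 12.9% of all promoters. CCAAT was found in Vim and Synm (34.0% of all promoters) and the GC box GGGCGG in Vim, Nes and Ina (30.5%). A match is a match of letters only, and the Gfap window held none of the 7 motifs. At such low shares, absence of the AP-1, STAT, RBPJ and NFI sites from 5 windows is the usual outcome, so nothing is concluded from it. Sites outside these windows were not searched.

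Gfap, the filament protein that defines astrocytes, stood at 79141 and 80736 normalized counts in ctrl and at 10834 and 19613 in Phf8oe. The ctrl libraries were nearly equal, both Phf8oe libraries were far below them, and replicate 1 was the lower of the Phf8oe pair. The fall was 5.48-fold (log2 fold change -2.46, SE 0.3, limma adjusted p = 0.022, n = 2 per group). Between single libraries it was 4.04-fold at the least and 7.45-fold at the most. The ctrl libraries differed from each other by 1.02-fold and the Phf8oe libraries by 1.81-fold. Gfap took 0.196% and 0.202% of all deposited values in ctrl and 0.0263% and 0.0487% in Phf8oe, so its transcripts remained present. The call was lost without ctrl replicate 1 (log2 fold change -2.47) and without ctrl replicate 2 (-2.44). The size of the change hardly moved there, as the ctrl libraries were nearly equal. The log2 fold change was -2.03 without Phf8oe replicate 1 and -2.88 without Phf8oe replicate 2, so its size depended on the Phf8oe library used. In cultures read as a whole, fewer cells with a transcript and less of it per cell cannot be told apart.

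Vim, encoding vimentin, the filament of progenitors, astrocytes and mesenchymal cells, stood at 60554 and 56563 in ctrl and at 27877 and 34179 in Phf8oe. The groups were well apart, and again Phf8oe replicate 1 was the lower of its pair. The fall was 1.9-fold (log2 fold change -0.92, SE 0.13, limma adjusted p = 0.00584). Vim had the smallest SE of the 8 genes and the smallest p. Without ctrl replicate 1 the log2 fold change was -0.87 (limma adjusted p = 0.139) and without ctrl replicate 2 it was -0.97 (limma adjusted p = 0.0517), so both calls were lost.

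Gfap and Vim form mixed filaments, so their balance was compared. The ratio of their normalized counts, which is not corrected for transcript length, was 1.31 and 1.43 in ctrl and 0.389 and 0.574 in Phf8oe, and was 2.89-fold lower on average. Thus the counts of Gfap exceeded those of Vim in both ctrl libraries and lay below them in both Phf8oe libraries. An exact two-sided permutation test of this ratio gave p = 0.333 (n = 2 per group), which is the smallest value that 2 against 2 libraries allow, and 0.444 when adjusted over the 4 ratios computed.

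Nefm, the medium neurofilament chain of axons, stood at 4142 and 2665 in ctrl and at 869 and 1201 in Phf8oe. Both Phf8oe libraries were below both ctrl libraries, and ctrl replicate 1 was the highest of the 4. The fall was 3.25-fold (log2 fold change -1.7, SE 0.27, limma adjusted p = 0.0315). The call was lost without ctrl replicate 1 (log2 fold change -1.38), without Phf8oe replicate 1 (-1.47) and without Phf8oe replicate 2 (-1.93). Without ctrl replicate 2 the log2 fold change was -2.02. Such fits take their spread from the group that keeps both libraries, so a lost call does not show which library carried the change.

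Nefl, the light chain that starts neurofilament assembly, stood at 4843 and 2704 in ctrl and at 573 and 1056 in Phf8oe. The groups did not overlap, but the libraries within each group differed by 1.79-fold and 1.84-fold, against medians of 1.1-fold and 1.13-fold over all tested genes. The log2 fold change was -2.22 (SE 0.47, limma adjusted p = 0.0935), the second largest in size of the 8 genes and not past the threshold. Nefl and Nefm neighbour each other in the GRCr8 assembly with no tested gene between them, and both were highest in ctrl replicate 1 and lowest in Phf8oe replicate 1. The ratio of Nefl to Nefm counts was 1.17 and 1.01 in ctrl and 0.659 and 0.879 in Phf8oe (exact two-sided permutation p = 0.333, n = 2 per group, adjusted 0.444). Stc1, the tested gene on the far side of Nefm, had a log2 fold change of -0.63 (limma adjusted p = 0.168), and Dock5, beyond Nefl, of -0.43 (limma adjusted p = 0.173).

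Nefh, the heavy chain added as axons mature, was scarce. The ctrl libraries held 48 and 32 normalized counts and the Phf8oe libraries 29 and 42, with overlapping groups. The log2 fold change was -0.16 (SE 0.36, limma adjusted p = 0.809). Its sign changed with the library left out, from -0.45 without ctrl replicate 2 to 0.12 without ctrl replicate 1, and small changes were not detectable at so few counts.

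Ina, encoding alpha-internexin, a filament protein of young neurons, stood at 1452 and 1437 in ctrl and at 1856 and 1437 in Phf8oe. Only Phf8oe replicate 1 differed from the other libraries, being higher. The log2 fold change was 0.18 (SE 0.14, limma adjusted p = 0.444), making Ina the 1 gene of the 8 with a value above 0, and it was -0.01 without Phf8oe replicate 1. Ina overlaps Nt5c2 in the GRCr8 assembly, which had a log2 fold change of -0.13 (limma adjusted p = 0.484). Whether reads of the pair were told apart by strand is not stated.

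Nes encodes nestin, the filament protein of neural stem and progenitor cells, which needs vimentin as a partner to form filaments. It stood at 3748 and 3069 in ctrl and at 1572 and 2461 in Phf8oe. The groups did not overlap, but Phf8oe replicate 2 came near ctrl replicate 2, with a gap of 1.25-fold. The log2 fold change was -0.79 (SE 0.23, limma adjusted p = 0.108). It was -0.46 without Phf8oe replicate 1 (limma adjusted p = 0.0276) and -1.11 without Phf8oe replicate 2 (limma adjusted p = 1.1e-05), since the spread between the Phf8oe libraries then drops out of the fit. The ratio of Vim to Nes counts was 16.2 and 18.4 in ctrl and 17.7 and 13.9 in Phf8oe, with overlapping groups (exact two-sided permutation p = 0.667, n = 2 per group, adjusted 0.667).

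Synm encodes synemin, which ties vimentin and desmin filaments to adhesion sites. It stood at 92 and 93 in ctrl and at 34 and 150 in Phf8oe. The Phf8oe libraries lay on either side of ctrl and differed from each other by 4.41-fold, the widest spread of the 8 genes. The log2 fold change was -0.36 (SE 0.74, limma adjusted p = 0.802). It changed sign with the library used, being 0.69 without Phf8oe replicate 1 (limma adjusted p = 0.115) and -1.42 without Phf8oe replicate 2 (limma adjusted p = 0.00493).

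**Figure D2:**
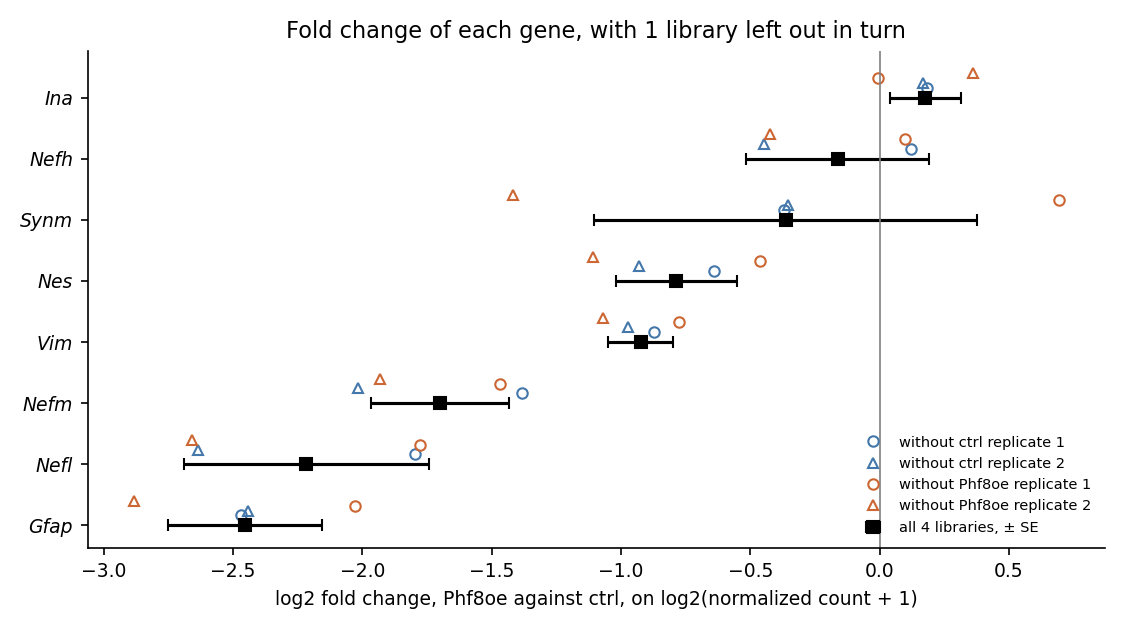
Log2 fold change of each gene, Phf8oe against ctrl, as black squares with SE, and the value with 1 library left out in turn as open symbols. Gfap, Nefl, Nefm, Vim and Nes stay below 0 throughout, between -2.88 and -0.46, whereas Synm runs from -1.42 to 0.69. Where the groups do not overlap, leaving out 1 library cannot change the sign.

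Phf8oe replicate 1 had the lower value of its pair in 7 of the 8 genes, Ina being the exception. Over all tested genes, replicate 2 was above replicate 1 in 50.4%. Phf8 itself was lower in replicate 1 (5650) than in replicate 2 (10796), so the library with less Phf8 had the lower filament counts, in a pair of libraries only. In ctrl, replicate 1 was the higher in 6 of the 8 genes, against 49.1% of all tested genes.

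Among 9 further measured intermediate filament genes, 2 rose, none fell and 7 did not pass, and their median log2 fold change was 0.26. Of all tested genes, 2.99% were called higher and 4.65% lower. Lmnb1, encoding the nuclear lamina protein lamin B1, went from 1302 and 1423 to 1932 and 2049, a rise of 1.46-fold (limma adjusted p = 0.0222). Bfsp2, a lens filament gene, was scarce and rose from 17 and 16 to 45 and 41. The A-type lamin gene Lmna, picked after its values were seen, stood at 12957 and 9991 in ctrl and at 4682 and 6837 in Phf8oe and did not pass (log2 fold change -1.01, limma adjusted p = 0.0539). Prph, encoding the type III protein peripherin, stood at 3638 and 7011 in ctrl and at 7317 and 5021 in Phf8oe, with overlapping groups (log2 fold change 0.26, limma adjusted p = 0.75). Both rises were lost without ctrl replicate 1 and without ctrl replicate 2, where none of the 9 genes passed.

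Linker proteins tie intermediate filaments to actin, microtubules and adhesion sites. The list used here also holds proteins that link actin, such as Macf1, Vcl, Zyx and Tln1. Of 11 measured genes in this list, 3 fell, 1 rose and 7 did not pass, and the median was 0.02 (log2 fold change). Over all tested genes 4.65% were called lower and 2.99% higher. Plec, encoding plectin, which binds vimentin and Gfap filaments, went from 29870 and 26699 to 19647 and 16849, a fall of 1.55-fold (limma adjusted p = 0.0176). Dst, encoding dystonin, went from 18698 and 15602 to 9483 and 10364 (1.72-fold, limma adjusted p = 0.00824). Macf1, a linker of actin and microtubules, fell 1.36-fold. These 3 encode plakins, a family of giant linkers, whereas Ppl, encoding the plakin periplakin, stood at 63 and 99 in ctrl and at 44 and 152 in Phf8oe and did not pass (log2 fold change 0.05, limma adjusted p = 0.969). Dtnb, encoding beta-dystrobrevin of the dystrophin complex, rose 1.67-fold, from 395 and 442 to 726 and 671. No linker passed without ctrl replicate 1, and 1 did without ctrl replicate 2.

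Phosphorylation drives the disassembly of filaments. Of 23 kinases and phosphatases measured, 1 fell, none rose and 22 did not pass, and the median log2 fold change was -0.1. That count is near the 4.65% of all tested genes that were lower. The 1 was Pak1, a kinase of the cytoskeleton that acts on vimentin, which went from 876 and 951 to 472 and 484 (1.91-fold, limma adjusted p = 0.00641). It did not pass without ctrl replicate 1 (log2 fold change -0.99, limma adjusted p = 0.11) or without ctrl replicate 2 (-0.87, limma adjusted p = 0.0685).

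Among 13 genes for chaperones and turnover, 2 fell, none rose and 11 did not pass (median log2 fold change -0.14). Both that fell encode calpains, calcium-activated proteases that cleave Gfap, vimentin and neurofilaments. Capn2 went from 8123 and 7987 to 4712 and 5070 and Capn1 from 1660 and 1576 to 965 and 1165. Of 12 genes listed for the transport of filaments along microtubules or actin, 3 fell, none rose and 9 did not pass (median -0.29). Beside motors and their partners, the transport list holds Apc and Cdc42. The counts of both lists stand against 4.65% of all tested genes called lower and 2.99% called higher. Myo5a, a myosin motor, fell 1.71-fold, Kif5c, a kinesin heavy chain, 1.63-fold, and Dync1h1, the heavy chain of cytoplasmic dynein, 1.67-fold. None of these 5 falls passed without ctrl replicate 1 or without ctrl replicate 2.

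**Figure D3:**
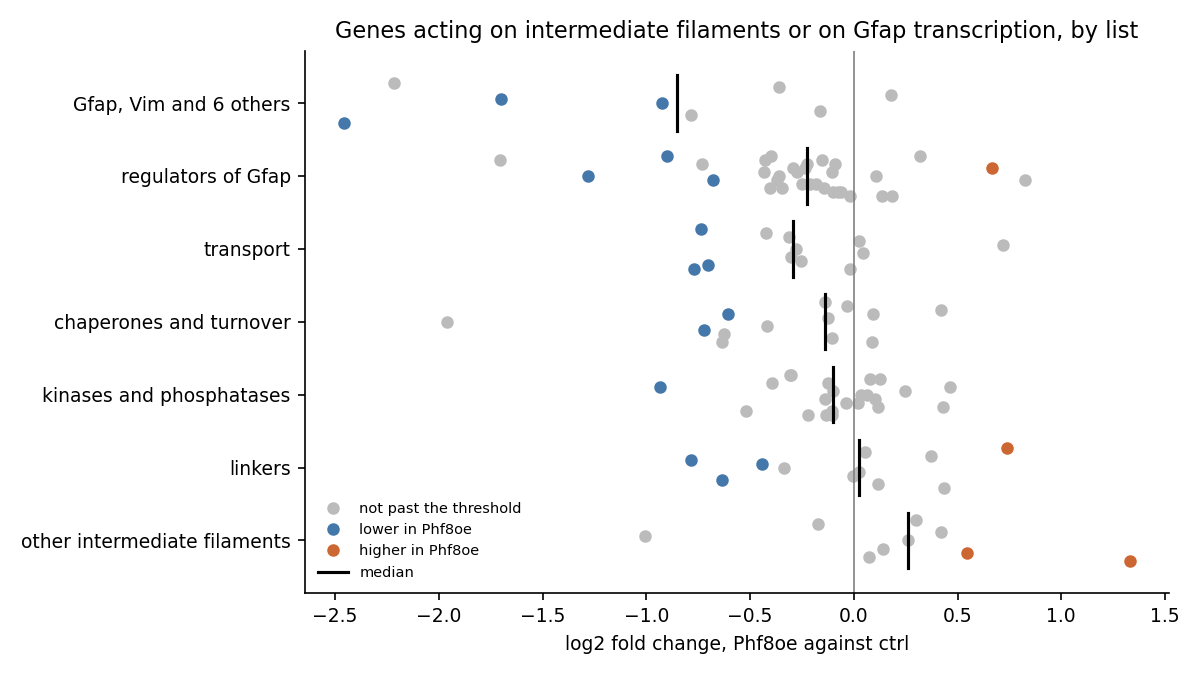
Log2 fold change, Phf8oe against ctrl, of the 8 filament genes (top) and of 6 lists of genes that regulate Gfap or act on filaments, with 1 point per gene, points past the threshold in blue (lower) or orange (higher) and the median as a bar. Medians of the lists run from -0.29 to 0.26, against -0.85 for the 8 genes.

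Transcription of Gfap in glia is known to be driven by cytokines of the LIF and CNTF family, which act through the receptor chain gp130 and the factor Stat3, together with BMP, Notch and NFI signals. Of 33 measured genes listed as regulators of Gfap, 3 fell, 1 rose and 29 did not pass. Beside genes of these routes the list held Sox9, Crebbp, Ncor1, Dnmt1 and Rest. It pooled activators with inhibitors such as Socs3, so its median and signs give no direction for the routes. The median log2 fold change was -0.23, and 27 of the 33 values lay below 0, against 49.6% of all tested genes below 0, 4.65% called lower and 2.99% called higher. The number called lower moved with the settings, to 5 with scaling to the total and to 7 in limma-voom. The 3 that fell belong to the cytokine route. Stat3 went from 16416 and 14843 to 9367 and 10148, a fall of 1.6-fold (log2 fold change -0.68, SE 0.11, limma adjusted p = 0.00898). Il6st, encoding gp130, went from 5149 and 3742 to 2326 and 2377, a fall of 1.87-fold (limma adjusted p = 0.0158). Socs3, a feedback inhibitor that Stat3 induces, went from 1297 and 1076 to 446 and 528, a fall of 2.43-fold (limma adjusted p = 0.00318). In all 3 the groups were well apart.

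The ligand gene Lif, picked after its values were seen, was near the limit of measurement at 32 and 26 in ctrl and 5 and 13 in Phf8oe (limma adjusted p = 0.066). Bmp4, a ligand that promotes astrocytes over oligodendrocytes, was the 1 gene listed as a Gfap regulator that rose. It went from 4713 and 5852 to 9079 and 7670 (1.59-fold, limma adjusted p = 0.0251). Sox9 and Nfia, factors of early gliogenesis, had log2 fold changes of -0.1 and -0.09 and did not pass; they too were picked after their values were seen. Without ctrl replicate 1 none of the 33 genes passed. Without ctrl replicate 2 Il6st (log2 fold change -1.13, limma adjusted p = 0.023) and Socs3 (-1.42, limma adjusted p = 0.0282) passed, and neither Stat3 (-0.75, limma adjusted p = 0.058) nor Bmp4 (0.82, limma adjusted p = 0.0579) did.

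Markers of the cell types that these filaments define are given beside the falls. Of 14 measured astrocyte markers other than Gfap, 2 fell, 2 rose and 10 did not pass. Their summed normalized count was between 133718 and 151468 in ctrl and between 116245 and 124836 in Phf8oe. Over all tested genes 4.65% were called lower and 2.99% higher. Clu and Atp1b2 fell, and Aldh1l1 and Slc1a3 rose. Aqp4, Gjb6 and Acsbg1 were absent from the deposited genes under these names and could not be measured. The glutamate transporter gene Slc1a2, a marker of mature astrocytes, was at 30 and 58 in ctrl and at 16 and 25 in Phf8oe and did not pass (limma adjusted p = 0.162). The astrocyte enzyme gene Aldh1l1 was scarce as well and rose 3.67-fold, from 9 and 10 in ctrl to 32 and 44 in Phf8oe (limma adjusted p = 0.0251). Other genes of the list, such as Fgfr3 at 28847 and 35631 and S100b at 12094 and 10964 in ctrl, are also expressed in the oligodendrocyte lineage. Mlc1 was too low to be tested.

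None of 17 neuronal markers passed, 12 of them lying below 0 (49.6% of all tested genes did), and their sum was between 25332 and 25662 in ctrl and between 20225 and 22173 in Phf8oe. At an unadjusted p under 0.05, 4 were lower and 2 higher, against 13.6% and 12.7% of all tested genes, and limma-voom called 0 of the 17. Levels within the list varied widely. Rbfox3 and Snap25, which define mature neurons, were at 38 or less in every library, whereas Map2 (6951 or more), Syt1 (3320 or more) and Gap43 (2610 or more) were abundant in both groups. Markers of young neurons lay on both sides of 0. Tubb3, their tubulin, stood at 7458 and 4778 in ctrl and at 1893 and 3353 in Phf8oe (log2 fold change -1.24, limma adjusted p = 0.173). Dcx, encoding doublecortin, was scarce at 14 and 7 in ctrl and 33 and 25 in Phf8oe (1.44, limma adjusted p = 0.0808), and the RNA-binding protein gene Elavl3 had a log2 fold change of 0.40 (limma adjusted p = 0.0783). Of 7 neural progenitor markers 2 fell, Prom1 from 293 and 163 to 27 and 58 and Fabp7 1.55-fold, and Sox2 stood at a log2 fold change of -0.01. Of 9 markers of oligodendrocyte progenitors 2 fell and none rose, and of 10 oligodendrocyte markers 3 rose and none fell. The counts of these progenitor and oligodendrocyte lists stand against 4.65% of all tested genes called lower and 2.99% called higher. What part these markers had in the falls of the filament genes was not tested.

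Of the remaining marker lists, the 9 Schwann cell and neural crest genes held 2 that fell, the 3 measured fibroblast and pericyte genes 1 that fell and 1 that rose, and the 3 measured microglial genes none that passed (0 at an unadjusted p under 0.05, and 0 in limma-voom). Sums for fibroblast and pericyte genes lay between 558 and 564 in ctrl and between 264 and 347 in Phf8oe, all from Col1a1, Cspg4 and Postn. The shares called over all tested genes were 4.65% lower and 2.99% higher. Without ctrl replicate 1, 1 astrocyte marker fell and no gene of the other marker lists passed; without ctrl replicate 2, 2 astrocyte markers fell, as did 1 gene each of the oligodendrocyte progenitor, the Schwann cell and neural crest, and the fibroblast and pericyte lists, and no gene of the other lists passed.

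The chromosomal neighbours of the genes that fell were taken from the GRCr8 assembly, which differs from the build behind the counts. Next to Gfap on one side, FAM187A went from 752 and 381 to 37 and 52, a fall of 12-fold (limma adjusted p = 0.00355). On the other side, Kif18b, a mitotic kinesin, stood at 1279 and 1430 in ctrl and at 1343 and 1352 in Phf8oe (log2 fold change -0.01). The neighbours of Vim, Trdmt1 and Hacd1, had log2 fold changes of -0.36 and 0.22 and did not pass. Of the 2 tested genes beside Gfap, 1 thus fell and the other did not pass.

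The genes whose profile over the 4 libraries was most like that of a filament gene were found by the distance between log2 values, each gene centred on its own mean. For Gfap these were Lrrc15, Igfbp3, Ecel1, Gpr63 and Cxcl14, at distances of 0.124 to 0.265. Igfbp3, a secreted binder of insulin-like growth factors, went from 3778 and 3597 to 531 and 978. For Vim they were Phlda1, Slc25a36, Arrdc3, Fosl1 and Dusp5, at distances of 0.0562 to 0.0857. Phlda1 went from 2410 and 2306 to 1110 and 1426. Fosl1 encodes an AP-1 subunit and Dusp5 a phosphatase of ERK. For Nefm they were Rassf4, Itga4, Itga8, Klf6 and Itga3, at distances of 0.137 to 0.268, and 3 of these encode integrin alpha chains. Rassf4 went from 724 and 532 to 160 and 221. With 4 libraries such likeness is a description of 4 values per gene.

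**Figure D4:**
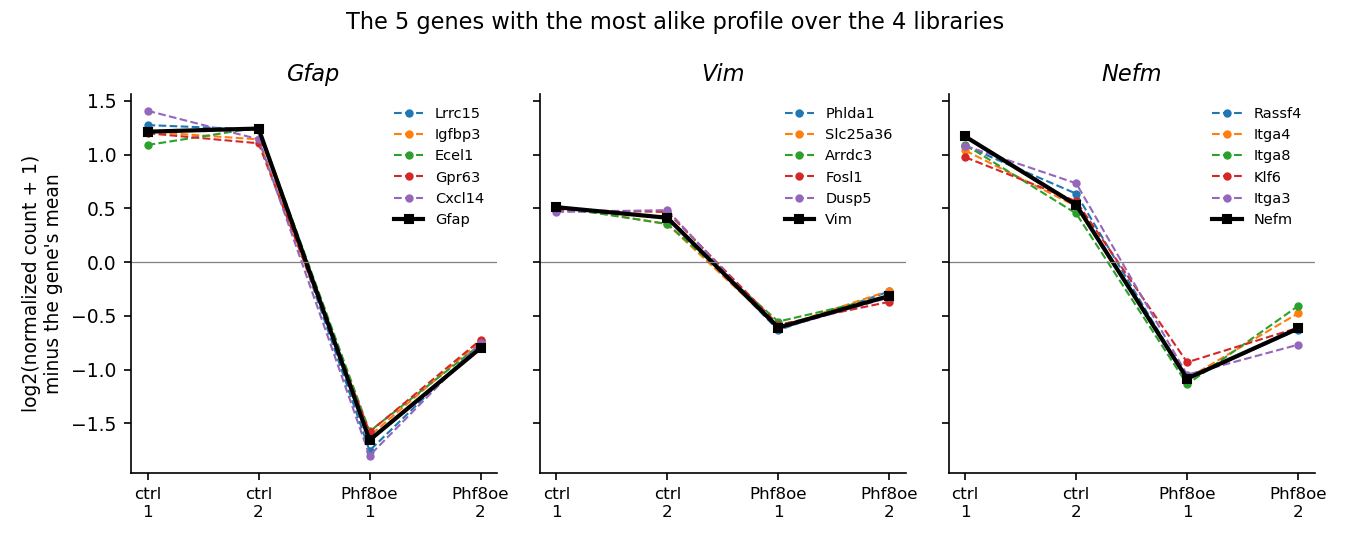
Log2(normalized count + 1) minus the gene's own mean in the 4 libraries, for Gfap, Vim and Nefm (black) and the 5 genes closest to each (dashed colours). All profiles drop from ctrl to Phf8oe, with Phf8oe replicate 1 lowest; the lines only join the points of a gene and replicates have no order.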

How the data were processed

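RNA-seq libraries of rat CG4 cells, 2 ctrl and 2 Phf8oe, were paired-end with reads of 150 bases, per the labels. The submitters' processing notes name bcl2fastq 2.20, Trimmomatic 0.36, STAR 2.5.2b and DESeq2, with builds rn6 and Rnor_6.0. No source used here gives the counter, the annotation release or the use of strand. Each deposited value is a signal, namely a normalized count that the authors scaled and rounded, although labelled raw. This was read from regularly missing or doubled whole numbers, which put 1 read at 0.8445 (ctrl 1), 1.0176 (ctrl 2), 0.9549 (Phf8oe 1) and 1.4159 (Phf8oe 2). The 4 sample files matched the table.

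Genes with at least 10 in at least 2 libraries were tested with limma 3.58.1 (R 4.3.3) on log2(value + 1), which understates changes of low genes. The group was the only term. Empirical Bayes moderation followed the mean and was robust, with 2 residual and (median) 6.99 prior degrees of freedom. Two-sided p-values were adjusted by Benjamini-Hochberg over all 14368 genes, with a threshold of 0.05. The procedure was tested on simulated data. Alternatives were other scalings, filters, pseudocounts, moderation, limma-voom on estimated reads, a replicate block and leaving out each library.

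The 8 genes, the 6 pathway lists and the 8 marker lists were chosen with earlier results of these data known. Named were the 8 genes, Phf8, up to 4 genes of each pathway list past the threshold with the smallest p, chromosomal neighbours, and the 5 genes with the most alike profile to Gfap, Vim and Nefm. Other names were chosen after their values were seen. One gene of a marker list is not reported here. Scripts ran in Python 3.11.15 with numpy 2.4.6 and pandas 2.3.3, and figures were drawn with matplotlib 3.10.9.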

Additional observations from a re-analysis of the deposited data

How the results depend on the processing

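Gfap, Vim and Nefm kept their direction under all 16 alternatives run, as did Nefl and Nes. Their groups did not overlap, so leaving out 1 library could not change the sign. Filters, moderation and blocks leave the fold change as it is by construction, so only the scalings, pseudocounts and limma-voom could move it with all libraries kept. The log2 fold change of Gfap lay between -2.48 and -2.41 over the 12 alternatives that kept all libraries, that of Vim between -0.94 and -0.88, and that of Nefm between -1.75 and -1.66. Leaving out 1 library at a time gave 20 to 2145 genes called in all, and 0 to 4 of the 8 filament genes lower. None of the 8 was called higher under any alternative. With no variance trend in limma, 0 genes and 0 of the 8 were called, against 3133 and 5 at an unadjusted p under 0.05 in that fit. Upper quartile scaling split the calls into 614 higher and 598 lower, against 430 and 668. With 1 library left out, Nefh ranged from -0.448 to 0.12, Ina from -0.0075 to 0.36 and Synm from -1.42 to 0.69, so each changed sign without Phf8oe replicate 1, and Nefh (0.12) also without ctrl replicate 1; the cause was not tested. Nefl passed without robust moderation (limma adjusted p = 0.0215). Of the 16 named genes of the pathway lists, none passed without ctrl replicate 1, 3 passed without ctrl replicate 2, 15 without Phf8oe replicate 1 and 16 without Phf8oe replicate 2. Shared replicate numbers are not stated to pair the libraries, and replicate differences of the groups correlated across genes at -0.13. With the replicate block 373 genes were called and 2 of the 8 fell, Nefm being lost (limma adjusted p = 0.066); of the 16 named pathway genes 10 fell and 0 rose there, so that the 4 rises (Lmnb1, Bfsp2, Dtnb and Bmp4) and the falls of Macf1 and Capn1 were lost, while Phf8 passed (limma adjusted p = 0.0313). A crossed pairing, added after the data were seen, called 2354 genes and 5 of the 8. Depth limits what can be said of Nefh and Synm, which had few counts.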
